A study of Mus musculus with 8 samples.

Results

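A set of 10 genes of MHC class I antigen presentation was examined in RNA-seq libraries of sorted 4T1 cells, a mammary carcinoma line from a BALB/c mouse. They are the heavy chains H2-K1 and H2-D1, the light chain B2m, the peptide transporter subunits Tap1 and Tap2, the loading chaperone Tapbp, the immunoproteasome subunits Psmb8, Psmb9 and Psmb10, and the invariant chain Cd74. The members were chosen by name, and all 10 were among the 16341 genes counted. Cells positive for SCA1, the surface antigen whose gene is Ly6a, were compared with cells negative for it (4T1-SCA1+ and 4T1-SCA1-), and each fraction had 4 libraries numbered 1 to 4. The fractions were separated on magnetic columns after staining. By the source label the cells came from the parental line, while the extraction protocol speaks of stained tumor and the sort label gives a CD45- gate. No drug, gene deletion or transgene is named in the labels for either fraction, and both came from the same line. Nothing in the labels says that replicates were separate sorts, so p-values here measure only the spread between these libraries, which may be technical.

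Class I molecules are built from a heavy chain and beta-2-microglobulin, and they show peptides made inside the cell to CD8+ T cells. The peptides are cut by proteasomes, carried into the endoplasmic reticulum by the TAP transporter and loaded with the help of tapasin. Interferons induce most genes of this route, including the 3 immunosubunits that take the place of constitutive catalytic subunits in the proteasome. Cd74 belongs to the class II route, where it chaperones class II molecules and is otherwise known as a receptor for the cytokine MIF.

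The sort marker Ly6a ranged from 145 to 193 normalized counts among 4T1-SCA1+ libraries and from 0 to 4.11 among 4T1-SCA1- libraries, where a normalized count is a count divided by the size factor of its library. Library totals ran from 13561804 to 16968215 counts, and 13777 to 14352 genes were detected per library. The epithelial markers Epcam, Krt8 and Krt18 were abundant in both fractions, with means of 3128, 13673 and 16514 normalized counts in 4T1-SCA1+ cells and 3222, 11093 and 12802 in 4T1-SCA1- cells. Cdh1 (3264 and 5301), Krt7 (17103.5 and 19845.3) and Krt14 (550 and 649) had lower means in 4T1-SCA1+ cells. Krt19 had 2522 and 2535, and Krt5 had at most 2 counts in any library. The libraries also differed in their balance of GC-rich and GC-poor genes. The median deviation of genes with at least 55.6% transcript GC, less that of genes with at most 44.0%, ran on the log2 scale from 0.05 to 0.40 in 4T1-SCA1+ libraries and from -0.27 to 0.01 in 4T1-SCA1- libraries, and replicate 3 of 4T1-SCA1+ was the highest. B2m has 41.2% GC in its longest annotated transcript and the other 9 genes have 52.5% to 57.1%. An alternative fit corrected for GC is therefore given beside the results it changed.

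Most of the class I genes lie together in the MHC. On GRCm38, H2-K1 (ENSMUSG00000061232) is at chr17:33996017-34000347 and H2-D1 (ENSMUSG00000073411) at chr17:35262730-35267499. Between them are Tap1 at chr17:34187553-34197225, Tap2 at chr17:34203527-34216321, Psmb8 at chr17:34197721-34201454 and Psmb9 at chr17:34181987-34187764. Tapbp is at chr17:33915899-33929292, on the other side of H2-K1. Outside the MHC are B2m at chr2:122147686-122153083, Psmb10 at chr8:105935735-105938444; Cd74 also lies outside it.

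Promoter windows from RefSeq (GRCm38.p6), each reaching from 250 bases before to 50 bases after a transcription start, were found for 8 of the 10 genes. A pair of motifs of inducible class I transcription was looked for on both strands, and the matches are shown because factors that bind them are among the regulators measured here. The NF-kappaB site, searched as the letters in capitals in the H2-K1 stretch given here, was found in the windows of H2-K1 and H2-D1 and in 35 of all 32851 windows (0.107%). The interferon-stimulated response element, searched as GAAA repeated after a gap of 2 bases, was found in the B2m window and in 3.44% of all windows. The stretches of 30 bases around the matches are given from 5′ to 3′ on the strand of the gene, with the matched motif in capitals, at chr17:34000439-34000468 for H2-K1, chr17:35262913-35262942 for H2-D1 and chr2:122147538-122147567 for B2m.
H2-K1: gcccagggctGGGGATTCCCcatctccaca
H2-D1: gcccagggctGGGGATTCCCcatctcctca
B2m: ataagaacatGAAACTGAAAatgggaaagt
The first matched base was at -111 from the RefSeq start for H2-K1, -171 for H2-D1 and -139 for B2m, and no motif overlapped another in these stretches. The H2-K1 site was at -125 from another RefSeq start of that gene, whose window is also among the 35 that matched. In the GENCODE annotation the H2-D1 stretch lies within a first exon that begins further upstream. A match describes letters in the reference only, and binding was not measured. Only the patterns as given were searched, so windows without a match may hold variants of either motif. The windows of Tap1 and Psmb9, which are transcribed away from each other, share 275 bases and held neither motif in the form searched.

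Levels per transcript length spanned a wide range within the route and came in the same order in both fractions. In RPKM, which scales counts by the length of the principal transcript and by library size, B2m was at 473 ± 36.2 (SD, n = 4) in 4T1-SCA1+ and 450 ± 12.9 in 4T1-SCA1- cells, H2-K1 at 217 ± 7.86 and 206 ± 5.94, and H2-D1 at 129 ± 6.88 and 119 ± 4.99. Tapbp followed at 78.5 ± 4.50 and 83.5 ± 4.29 RPKM. The immunosubunits were lower, with Psmb10 at 31.0 ± 1.19 and 31.6 ± 1.61, Psmb8 at 20.1 ± 1.60 and 16.4 ± 0.690, and Psmb9 at 2.19 ± 0.143 and 1.70 ± 0.525 RPKM. The transporter subunits differed from each other, since Tap2 was at 9.91 ± 0.434 and 9.98 ± 0.968 RPKM and Tap1 at 2.95 ± 0.428 and 2.45 ± 0.286. Cd74 was at 5.94 ± 0.302 and 2.99 ± 0.664 RPKM. In 4T1-SCA1- cells, the SD ranges of Cd74 and Tap1 overlapped, as did those of Tap1 and Psmb9. Dividing by the length of all annotated exons in place of the principal transcript kept this order in 4T1-SCA1+ cells and exchanged Psmb8 (7.91) and Tap2 (9.08) in 4T1-SCA1- cells.

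**Figure D1:**
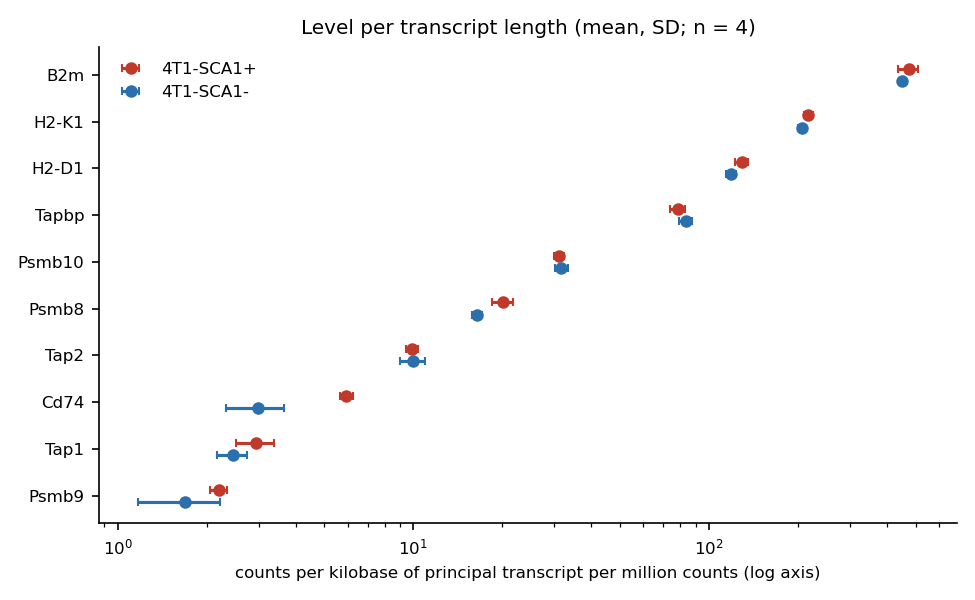
Level of each gene on a log axis in RPKM, with points for the mean and bars for the SD of 4 libraries in each fraction. B2m, H2-K1 and H2-D1 sit at 119 to 473, Tap1 and Psmb9 at 1.70 to 2.95, and the fractions stand apart most for Cd74.

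Of the 10 genes, all of which passed the filter on low counts, 2 were higher in 4T1-SCA1+ cells (Cd74 and Psmb8), 1 was lower (Tapbp) and 7 were not called, by edgeR's quasi-likelihood test with Benjamini-Hochberg adjustment at 0.05. Among the 11717 genes tested, 61.5% were called in either direction, 31.3% higher and 30.2% lower. With the GC correction, 6 of the 10 genes were called, with Cd74, Psmb8 and B2m higher and Tapbp, Tap2 and Psmb10 lower, and the share over all genes tested was 65.2% (32.2% higher and 33% lower). The median size of the log2 fold change, without its sign, was 0.10 over the 10 genes and 0.24 over all genes tested, and the signed medians were 0.05 and 0.01. For 2 of the 10 genes, Cd74 and Psmb8, the groups did not overlap, against 54.7% of all genes tested. In bulk libraries, a lower share of cells that express a gene and less of its RNA in each cell cannot be told apart.

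**Figure D2:**
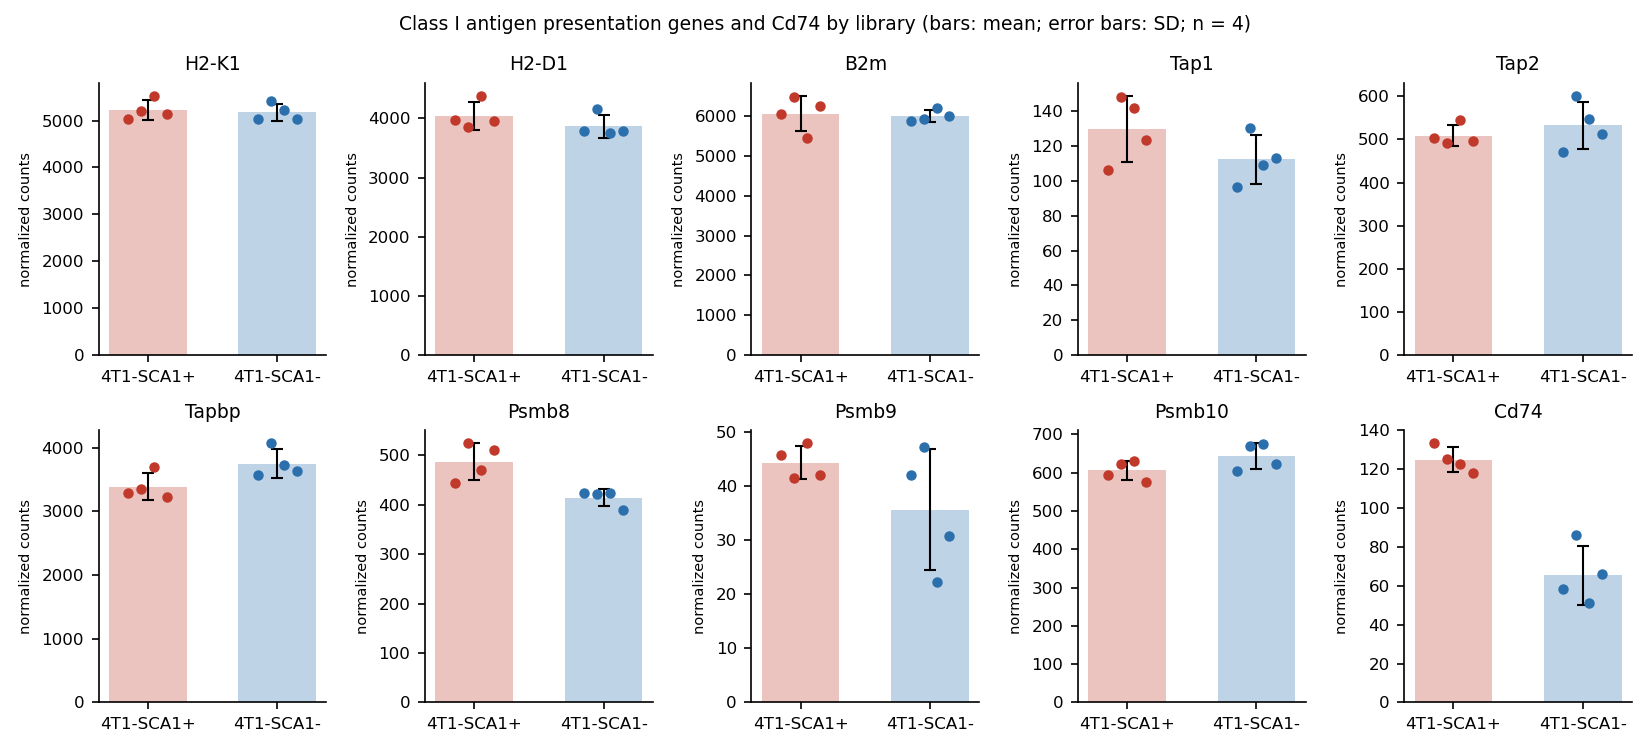
Normalized counts of the 10 genes in each library, with points for libraries, bars for the mean and error bars for the SD of 4 libraries per fraction. Each axis starts at 0. The points of the fractions overlap in 8 panels and are separate for Psmb8 (443 to 525 against 389 to 424) and Cd74 (118 to 133 against 51.2 to 86.2).

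The classical heavy chains, which hold the peptide, did not differ beyond the spread between libraries. H2-K1 had 5042, 5194, 5525 and 5149 normalized counts in 4T1-SCA1+ replicates 1 to 4 and 5039, 5416, 5220 and 5035 in 4T1-SCA1- replicates 1 to 4. H2-D1 had 3974, 3851, 4380 and 3951 in the same order of 4T1-SCA1+ libraries and 3789, 4163, 3748 and 3779 in the 4T1-SCA1- libraries. The groups overlapped for both genes, and the highest libraries were replicate 3 of 4T1-SCA1+ and replicate 2 of 4T1-SCA1-. The log2 fold change of 4T1-SCA1+ against 4T1-SCA1- was 0.03 ± 0.04 (SE) for H2-K1, with a 95% confidence interval from -0.07 to 0.12 and an adjusted p of 0.619. For H2-D1 it was 0.07 ± 0.05, with an interval from -0.03 to 0.18 and an adjusted p of 0.205. With the GC correction both signs turned, to -0.05 for H2-K1 and -0.04 for H2-D1.

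Class I heavy chains resemble one another in sequence, so their reads can be shared or misassigned, and the counting tool is not given in the sources used here. BALB/c mice carry MHC alleles that differ from those of the C57BL/6J reference genome, and they have an additional classical heavy chain, H2-L. How this affected the counts was not tested. To leave out the split between genes, the counts of all 18 heavy-chain genes of the MHC that were counted were added in each library. The sum was 12436 ± 616 normalized counts in 4T1-SCA1+ and 11851 ± 429 in 4T1-SCA1- cells, which differed by 0.08 ± 0.04 on the log2 scale (95% interval -0.01 to 0.18). H2-K1 and H2-D1 made up 74.1% to 76.9% of this sum in the 8 libraries. The ratio of H2-K1 to H2-D1 counts within a library was 1.30 ± 0.0399 in 4T1-SCA1+ and 1.34 ± 0.0386 in 4T1-SCA1- cells (exact two-sided permutation test, p = 0.2, adjusted over 6 ratios p = 0.24).

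The light chain B2m, without which heavy chains do not reach the surface stably, was not called either. It had 6048, 6475, 5453 and 6258 normalized counts in the 4T1-SCA1+ libraries and 5875, 5922, 6198 and 5993 in the 4T1-SCA1- libraries. Replicate 3 of 4T1-SCA1+ was the lowest of the 8 libraries and replicate 2 of 4T1-SCA1+ the highest. The log2 fold change was 0.03 ± 0.05 (95% interval -0.08 to 0.14, adjusted p = 0.655). With the GC correction it was 0.14 with an adjusted p of 0.00317, and without replicate 2 of 4T1-SCA1+ it was -0.01. The summed heavy chains stood to B2m at a count ratio of 1.54 ± 0.189 in 4T1-SCA1+ and 1.51 ± 0.0756 in 4T1-SCA1- cells (exact permutation p = 0.886). Replicate 3 of 4T1-SCA1+, the library with the highest GC balance, had a ratio of 1.82, and the other 7 libraries had 1.40 to 1.62.

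Of the 24 other heavy chains of the MHC listed, mostly nonclassical, 16 were counted and 11 passed the filter, of which 3 were higher, 1 was lower and 7 were not called, against 31.3% higher and 30.2% lower over all genes tested. Their median log2 fold change was 0.10, and that of all genes was 0.01. H2-T23, which encodes the Qa-1 molecule that presents leader peptides of class I chains to NK cell receptors, had 471, 484, 527 and 470 normalized counts in the 4T1-SCA1+ libraries and 336, 356, 346 and 368 in the 4T1-SCA1- libraries. The groups were separate, and the log2 fold change was 0.49 ± 0.06 (adjusted p = 3.74e-06). H2-Q5 was higher by 0.52 ± 0.11 (adjusted p = 0.000622), with means of 128 and 90.2 normalized counts. H2-Q4 was higher by 0.18 ± 0.06 (adjusted p = 0.022), a call that was lost with the GC correction (0.09) and without either replicate 3 of 4T1-SCA1+ (0.11) or replicate 4 of 4T1-SCA1- (0.12). H2-M3, which binds formylated peptides, was lower, with a log2 fold change of -0.24 ± 0.09 (adjusted p = 0.0261). That call was lost when any of 4 libraries was left out, namely replicates 2 and 3 of 4T1-SCA1+ and replicates 1 and 4 of 4T1-SCA1-, with values from -0.20 to -0.23, and with scaling by library totals alone (-0.20).

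Class I-like proteins encoded outside the MHC, which pair with B2m in most cases, included Fcgrt, whose difference was the largest of any class I or class II pathway gene listed. Of 7 listed, 5 were tested, 3 were higher and 1 was lower (31.3% and 30.2% over all genes tested), with a median log2 fold change of 0.58. Fcgrt, the neonatal Fc receptor that recycles IgG and albumin, had 52.1, 52.3, 78.8 and 49.0 normalized counts in the 4T1-SCA1+ libraries and 4.78, 2.05, 2.23 and 6.85 in the 4T1-SCA1- libraries. Every 4T1-SCA1+ library was above every 4T1-SCA1- library, with a log2 fold change of 3.84 ± 0.31 (95% interval 3.19 to 4.49, adjusted p = 1.07e-08). Cd1d1, which presents lipids to NKT cells, had means of 74.1 ± 13.8 and 27.1 ± 5.33 normalized counts, with a log2 fold change of 1.45 ± 0.18 (adjusted p = 2.37e-06). Mr1, which presents microbial vitamin B metabolites to MAIT cells, was higher by 0.58 ± 0.19 (adjusted p = 0.0121), a call that the DESeq2 Wald test did not make. Procr, the endothelial protein C receptor, was lower at -0.27 ± 0.05 (adjusted p = 0.0002).

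The TAP subunits, which together form the peptide pump of the endoplasmic reticulum, were not called. Tap1 had 106, 148, 142 and 123 normalized counts in the 4T1-SCA1+ libraries and 96.5, 130, 109 and 113 in the 4T1-SCA1- libraries, and the groups overlapped. Its log2 fold change was 0.22 ± 0.12 (95% interval -0.04 to 0.48, adjusted p = 0.129). Leaving out replicate 1 of 4T1-SCA1+, the lowest of its group, gave 0.30 with an adjusted p of 0.0395. Over all 20 alternatives the Tap1 value ran from 0.10 to 0.30, and the gene was not called in the other 19. Tap2 had means of 508 ± 24.6 and 532 ± 55.3 normalized counts, with a log2 fold change of -0.05 ± 0.07 (adjusted p = 0.537), or -0.20 with the GC correction (adjusted p = 0.0039). The Tap1 to Tap2 count ratio was 0.255 ± 0.0371 in 4T1-SCA1+ and 0.211 ± 0.00982 in 4T1-SCA1- cells (exact permutation p = 0.0857, adjusted p = 0.129). Tap1 shares 212 exonic bases with Psmb9 on the opposite strand, and the library kit named in the labels does not mark strand.

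Tapbp, or tapasin, bridges the transporter and the empty class I molecule. Tapbp shares 904 exonic bases with Gm19412 on the opposite strand and 149 with Zbtb22 on the same strand. It had 3295, 3349, 3697 and 3228 normalized counts in the 4T1-SCA1+ libraries and 3578, 4073, 3726 and 3630 in the 4T1-SCA1- libraries. Replicate 3 of 4T1-SCA1+ lay inside the range of the 4T1-SCA1- libraries, while the other 3 lay below it. The gene was lower in 4T1-SCA1+ cells at a log2 fold change of -0.13 ± 0.05 (95% interval -0.24 to -0.02, adjusted p = 0.0349). This call was lost in 10 of 20 alternatives, among them the omission of any of replicates 1, 2 and 4 of 4T1-SCA1+ (-0.12, -0.13 and -0.11) and of replicates 2 and 3 of 4T1-SCA1- (-0.10 and -0.14), and with the GC correction it was -0.28. Of the 7 other loading and folding genes, none was higher, 3 were lower and 4 were not called, with a median log2 fold change of 0.0037, while 61.5% of all genes tested were called and 30.2% were lower. Those lower were Tapbpl, the tapasin-related editor of peptides (-0.31 ± 0.07, adjusted p = 0.00105), the chaperone calnexin Canx (-0.16 ± 0.06, adjusted p = 0.0198) and Bcap31, an export factor of the endoplasmic reticulum (-0.15 ± 0.05, adjusted p = 0.018). The Canx call was lost with the GC correction (-0.06), that of Bcap31 without replicate 4 of 4T1-SCA1- (-0.13), and both with scaling by library totals alone (-0.12 and -0.11).

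Peptide trimming enzymes were lower or not called. Of 8 tested, 5 were lower in 4T1-SCA1+ cells, 0 were higher, and the median log2 fold change was -0.26, against 30.2% lower and a median of 0.01 over all genes tested. Erap1, the aminopeptidase that trims peptides to class I length in the endoplasmic reticulum, had 448, 411, 337 and 393 normalized counts in the 4T1-SCA1+ libraries and 543, 527, 510 and 564 in the 4T1-SCA1- libraries. The groups were separate, and its log2 fold change was -0.42 ± 0.08 (adjusted p = 0.000139). Lap3, a cytosolic leucine aminopeptidase, was lower at -0.59 ± 0.05 (adjusted p = 2.26e-08) and Thop1, a cytosolic oligopeptidase that degrades antigenic peptides, at -0.39 ± 0.05 (adjusted p = 5.47e-06).

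The immunoproteasome subunits replace the constitutive catalytic subunits Psmb5, Psmb6 and Psmb7 one for one. Psmb8, which takes the place of Psmb5, had 443, 525, 470 and 511 normalized counts in the 4T1-SCA1+ libraries and 424, 421, 424 and 389 in the 4T1-SCA1- libraries. No library of one fraction lay within the range of the other, and the gene was higher in 4T1-SCA1+ cells by 0.24 ± 0.07 on the log2 scale, a fold of 1.18 (95% interval 0.10 to 0.39, adjusted p = 0.00433). The call was kept in 19 of 20 alternatives, with values from 0.20 to 0.29, and was lost where a change of at least 1.5-fold was asked for. Psmb8 shares 498 exonic bases with Gm20496 on the opposite strand, and how this affected its counts was not tested.

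Psmb9, the partner of Psmb6, was the least abundant, with 45.7, 41.4, 47.9 and 42.0 normalized counts in the 4T1-SCA1+ libraries and 42.0, 47.2, 22.3 and 30.8 in the 4T1-SCA1- libraries. Replicates 1 and 2 of 4T1-SCA1- lay within the range of the 4T1-SCA1+ libraries, and the log2 fold change of 0.31 ± 0.19 had an interval from -0.10 to 0.72 (adjusted p = 0.18). Psmb10, the partner of Psmb7, had means of 606 ± 25.1 and 643 ± 34.2 normalized counts, with a log2 fold change of -0.07 ± 0.06 (adjusted p = 0.299), or -0.21 with the GC correction (adjusted p = 0.00123).

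All 3 replaced subunits were lower in 4T1-SCA1+ cells, against 30.2% of all genes tested. Psmb5 was lower at a log2 fold change of -0.34 ± 0.05 (adjusted p = 1.39e-05), Psmb7 at -0.42 ± 0.05 (adjusted p = 8.86e-07) and Psmb6 at -0.13 ± 0.05 (adjusted p = 0.025). The groups were separate for each of them, as they were for 54.7% of all genes tested. The Psmb6 call was lost without replicate 4 of either fraction (-0.11 and -0.12), with upper-quartile factors (-0.10) and with scaling by library totals alone (-0.09). Psmb7 shares 405 exonic bases with Nek6 on the opposite strand.

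The balance of each pair was then measured as a count ratio within the library, which needs no scaling between libraries. Psmb8 to Psmb5 was 0.511, 0.616, 0.526 and 0.585 in the 4T1-SCA1+ libraries and 0.393, 0.375, 0.398 and 0.332 in the 4T1-SCA1- libraries. Psmb10 to Psmb7 was 0.232, 0.241, 0.270 and 0.214 against 0.177, 0.198, 0.197 and 0.176. Both ratios were higher in every 4T1-SCA1+ library than in any 4T1-SCA1- library. The exact two-sided permutation test gave p = 0.0286 for each, the smallest value that 4 against 4 libraries allow, and p = 0.0857 after adjustment over 6 ratios, which does not pass 0.05. Psmb9 to Psmb6 was 0.018 ± 0.00174 and 0.0131 ± 0.0041, with overlapping groups (exact permutation p = 0.0571, adjusted p = 0.114). With the GC correction, the log2 fold changes of the partners were 0.20 for Psmb8 and -0.47 for Psmb5, and -0.21 for Psmb10 and -0.31 for Psmb7, so the members of the second pair came closer together.

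**Figure D3:**
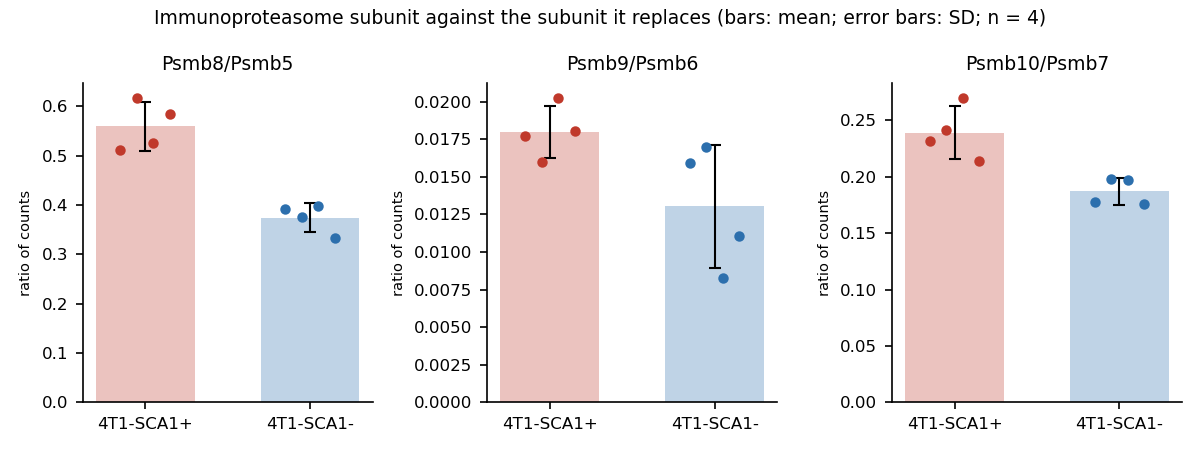
Ratio of the counts of each immunosubunit to those of the subunit it replaces, by library, with bars for the mean and error bars for the SD of 4 libraries per fraction. The fractions are separate for Psmb8/Psmb5 (means 0.560 and 0.375) and Psmb10/Psmb7 (0.239 and 0.187) and overlap for Psmb9/Psmb6 (0.018 and 0.0131).

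Per transcript length, the constitutive subunits exceeded their partners in both fractions. Psmb8 made up 23.6% ± 1.59 of the sum of Psmb8 and Psmb5 in 4T1-SCA1+ and 17.1% ± 1.14 in 4T1-SCA1- cells, Psmb10 made up 17.5% ± 1.40 and 14.2% ± 0.783 of its pair, and Psmb9 made up 1.05% ± 0.100 and 0.765% ± 0.238 of its pair. These shares depend on the length used: with the length of all annotated exons they were 12.9% and 9.05% for Psmb8 and 32.4% and 27.3% for Psmb10.

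The other core, activator and assembly genes of the proteasome that were listed were lower or not called as well. Of the 11 other subunits of the 20S core, 8 were lower and 0 higher, with a median log2 fold change of -0.22, and those furthest from 0 were Psma2 (-0.51 ± 0.05, adjusted p = 1.44e-07), Psma1 (-0.37 ± 0.06, adjusted p = 9.12e-05) and Psmb3 (-0.27 ± 0.05, adjusted p = 0.000105). Of 9 activator and assembly genes, 5 were lower and 0 higher, led by the assembly chaperone Psmg3 (-0.32 ± 0.07, adjusted p = 0.000517), the nuclear activator Psme3 (-0.30 ± 0.04, adjusted p = 1.28e-05) and Psmg1, a chaperone of core assembly (-0.23 ± 0.06, adjusted p = 0.00501). The interferon-inducible activator PA28 is made of the products of Psme1 and Psme2, and neither gene was called. Psme1 had means of 1570 and 1614 normalized counts (-0.03 ± 0.04, adjusted p = 0.623), and Psme2 had 262 and 292 (-0.14 ± 0.09, adjusted p = 0.199). Over all genes tested, 30.2% were lower and the median log2 fold change was 0.01.

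**Figure D4:**
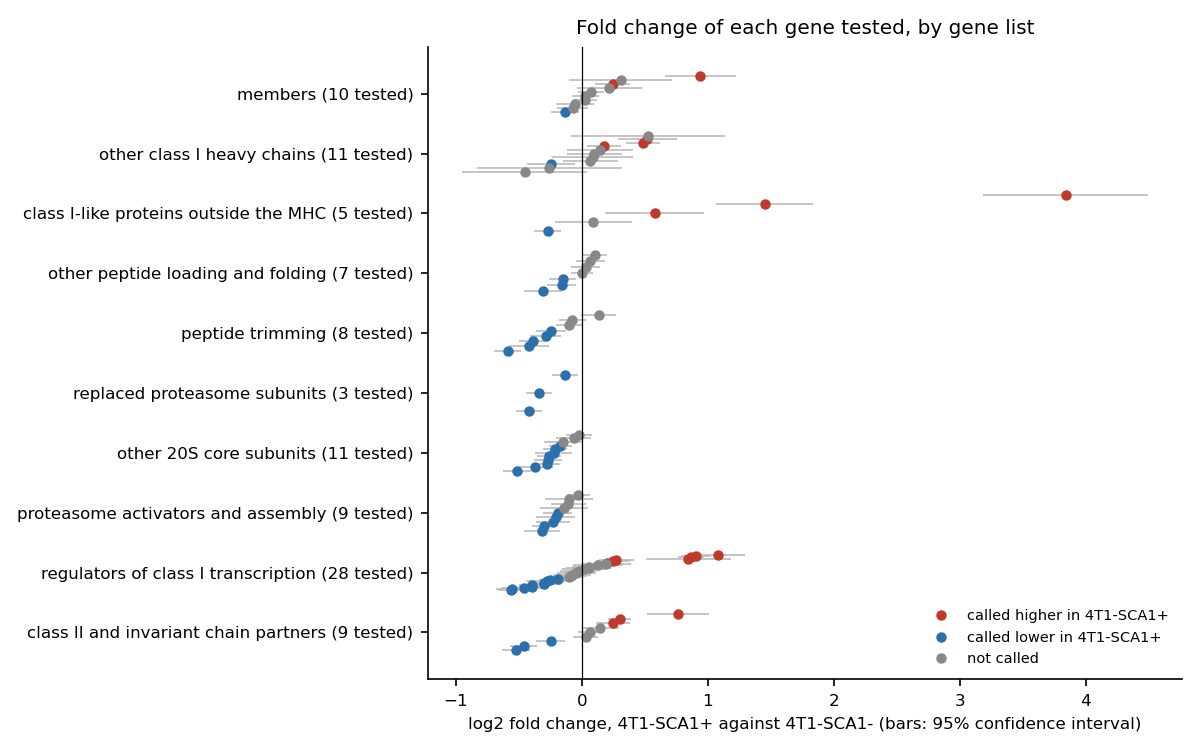
Log2 fold change of 4T1-SCA1+ against 4T1-SCA1- cells for each gene tested, by list (the 10 genes examined, Cd74 among them, are labelled members), with bars for the 95% confidence interval and colours for calls. Every called gene of the trimming and proteasome lists is below 0, Fcgrt is at 3.84, and the regulators run from -0.56 to 1.08.

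Of 28 regulators of class I transcription tested, 7 were higher, 10 were lower and 11 were not called, with a median log2 fold change of -0.04. The share called was close to the 61.5% of all genes tested (31.3% higher and 30.2% lower), so the count says nothing particular to regulators. Nlrc5, the transactivator of class I genes, had 1050, 1022, 1016 and 968 normalized counts in the 4T1-SCA1+ libraries and 516, 544, 583 and 540 in the 4T1-SCA1- libraries. It was 1.88-fold higher in 4T1-SCA1+ cells, with widely separate groups (log2 fold change 0.91 ± 0.06, adjusted p = 2.63e-10). Irf8, an interferon regulatory factor known from myeloid cells, had 251, 267, 328 and 316 against 144, 155, 122 and 131 normalized counts, a log2 fold change of 1.08 ± 0.10 (adjusted p = 8.53e-08). Jak2, a kinase of the interferon gamma and IL-6 family receptors, had 2726, 2790, 2540 and 2597 against 1568, 1447, 1433 and 1454, a log2 fold change of 0.86 ± 0.05 (adjusted p = 9.59e-11).

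Other factors of the same route were lower in 4T1-SCA1+ cells. Irf1, an interferon-induced activator of class I genes, had 940, 1000, 1026 and 1028 normalized counts in the 4T1-SCA1+ libraries and 1285, 1313, 1338 and 1354 in the 4T1-SCA1- libraries, with a log2 fold change of -0.39 ± 0.05 (adjusted p = 1.81e-06). Every 4T1-SCA1+ library was below every 4T1-SCA1- library for this gene. Rela, the NF-kappaB subunit p65, was lower at -0.56 ± 0.05 (adjusted p = 1.88e-08). The Polycomb methyltransferase Ezh2, which can silence class I genes, was lower at -0.55 ± 0.06 (adjusted p = 3.01e-07). Rfx5, a subunit of the RFX complex on class I and class II promoters, was lower at -0.46 ± 0.09 (adjusted p = 0.00027).

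**Figure D5:**
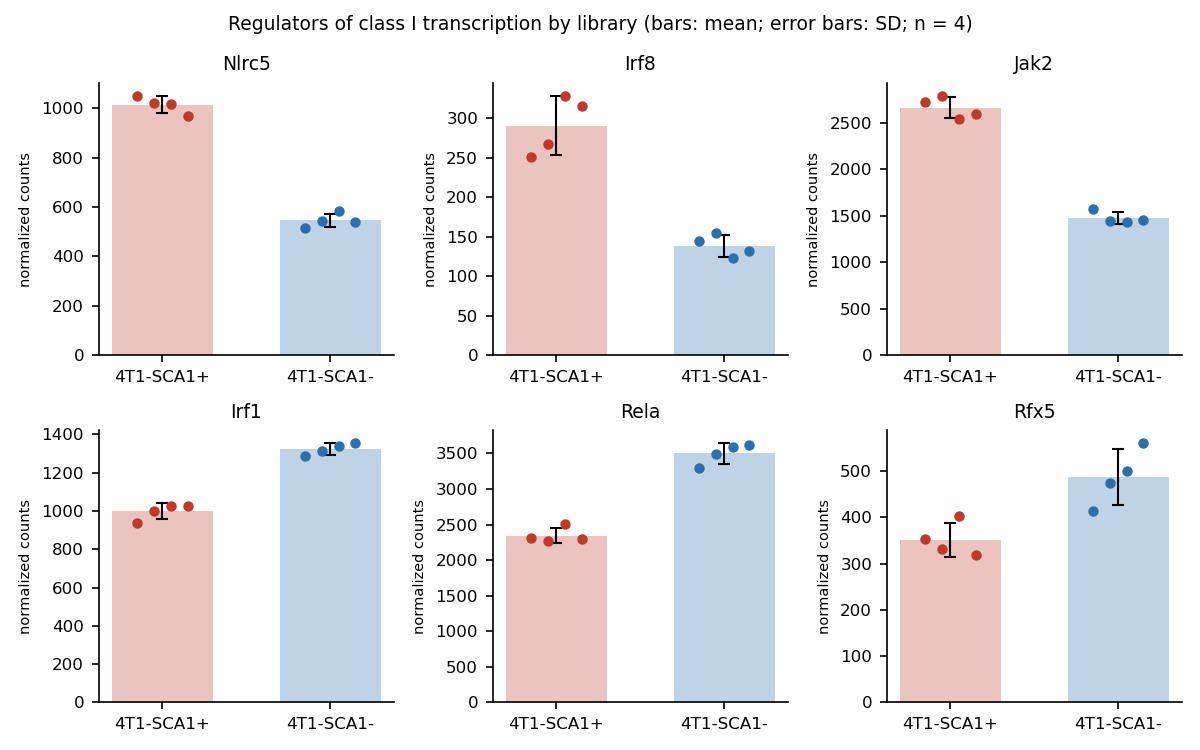
Normalized counts of 6 regulators in each library, with bars for the mean and error bars for the SD of 4 libraries per fraction. Nlrc5 (1014 against 546), Irf8 (291 against 138) and Jak2 (2663 against 1475) are higher in 4T1-SCA1+ cells, and Irf1 (999 against 1323), Rela (2346 against 3499) and Rfx5 (352 against 488) are lower.

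Cd74 differed most of the 10 genes. It had 133, 125, 123 and 118 normalized counts in the 4T1-SCA1+ libraries and 58.3, 86.2, 51.2 and 66.2 in the 4T1-SCA1- libraries. All 4T1-SCA1+ libraries were above all 4T1-SCA1- libraries, and the spread was wider in the 4T1-SCA1- group (SD 15.1 against 6.42). The gene was 1.92-fold higher in 4T1-SCA1+ cells, with a log2 fold change of 0.94 ± 0.13 (95% interval 0.66 to 1.22, adjusted p = 1.03e-05), and the call was kept in all 20 alternatives, with values from 0.81 to 1.10. It was the single member past 1.5-fold. Over all genes tested, 15.7% were both called and at least 1.5-fold apart, 11.7% higher and 4.08% lower.

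The class II molecules that Cd74 chaperones were at or near 0. H2-Ab1 reached at most 2 counts and H2-Eb1 at most 1 count in any library, and H2-Aa was not among the genes analysed here. Ciita, the class II transactivator, had 1.75 to 4.93 normalized counts in 4T1-SCA1+ libraries and 2.28 to 4.45 in 4T1-SCA1- libraries and was not tested. Of the 21 class II genes and Cd74 partners listed, 9 passed the filter, of which 3 were higher, 3 lower and 3 not called, with a median log2 fold change of 0.07, shares close to the 31.3% higher and 30.2% lower over all genes tested.

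H2-DMa, a subunit of the class II peptide exchange factor, had 137, 144, 167 and 137 normalized counts in the 4T1-SCA1+ libraries and 71.6, 87.3, 89.1 and 100 in the 4T1-SCA1- libraries, which did not overlap (log2 fold change 0.76 ± 0.12, adjusted p = 1.96e-05). The lysosomal protease Ctsd (0.30 ± 0.04, adjusted p = 1.04e-05) and the thiol reductase Ifi30 (0.25 ± 0.06, adjusted p = 0.00288) were also higher. Cd44, the signalling partner of Cd74 at the surface, was lower at -0.52 ± 0.05 (adjusted p = 1.65e-07). The Cd74 ligand Mif was lower at -0.24 ± 0.05 (adjusted p = 0.000866), and Lgmn, an endosomal protease, at -0.46 ± 0.05 (adjusted p = 5.77e-07).

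Cd74 is abundant in antigen-presenting leukocytes, so their markers were read beside it. Of 21 leukocyte markers, 16 were either not counted or at 10 counts or fewer in every library, among them Ptprc, which encodes CD45 and had 2 to 4 counts in each 4T1-SCA1+ library and 0 to 1 in each 4T1-SCA1- library. Summed counts in 4T1-SCA1+ against 4T1-SCA1- cells were 10 against 11 for Itgam, 11 against 12 for Itgax and 0 against 1 for Lyz2. They were 24 against 18 for Cd79a, 10 against 2 for Fcer1g, 4 against 1 for Fcgr3 and 3 against 1 for Cd3e and S100a9. Coro1a, which was not tested either, had 25 against 15. Of the 4 tested, 3 were higher and 1 was lower, where 31.3% of all genes tested were higher and 30.2% lower. S100a8 (38.5 and 7.52 normalized counts, log2 fold change 2.38 ± 0.27, adjusted p = 8.33e-07), Csf1r (39.8 and 17.8, 1.18 ± 0.20, adjusted p = 8.38e-05) and Cd68 (236 and 152, 0.65 ± 0.09, adjusted p = 6.06e-06) were higher in 4T1-SCA1+ cells, and Cd14 was lower (703 and 865, -0.29 ± 0.05, adjusted p = 0.000173). Most of the summed level of the list came from Cd14, so the sum does not show the level of the other markers. It was 1015 to 1066 normalized counts in 4T1-SCA1+ libraries and 1019 to 1096 in 4T1-SCA1- libraries. The part of such cells in the Cd74, Irf8 and H2-DMa differences was not tested.

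By likeness over the 8 libraries (Pearson r of log2 CPM, a description that shares the libraries and their GC balance), the genes closest to Cd74 were Zbtb20 (0.991), 2610528J11Rik (0.989) and Slc6a6 (0.986). Those closest to H2-K1 were Slc25a1 (0.959), Mboat7 (0.953) and Tmem259 (0.949).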

How the data were processed

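RNA of 4T1-SCA1+ and 4T1-SCA1- cells (4 libraries each) was sequenced on a NextSeq instrument from TruSeq RNA v2 libraries. The authors deposited raw counts per Ensembl gene, and the submitters' processing notes name cutadapt 1.16, STAR 2.5.3a, GRCm38 and mm10. The counting tool, annotation and strand setting are not given in the sources used here. The deposited signal table, with 15372 genes, equalled the counts divided by DESeq2 size factors within a relative 5.4e-15 and left out 969 genes with a single count over all libraries.

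The counts went unchanged into edgeR 4.0.16 (R 4.3.3) (filterByExpr, TMM, glmQLFit and glmQLFTest, two-sided, no covariate, adjusted p under 0.05 by Benjamini-Hochberg over 11717 genes, with 4624 not tested). Signed values are 4T1-SCA1+ minus 4T1-SCA1-. Normalized counts are counts over DESeq2 1.42.0 size factors. Ratios used log2 of count + 0.5 within each library and an exact permutation test. Symbols, lengths and GC came from GENCODE M21 (16202 genes matched, 139 not), and GC was known for 99.1% of tested genes. The fits were tested on simulated data. Alternatives used DESeq2, limma 3.58.1, other scalings, filters and thresholds, a replicate block, omission of each library and, chosen after seeing the data, GC-corrected offsets and exon lengths.

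The members and lists were chosen with earlier results of these data known. All 10 members were named, with up to 3 called genes at each end of each other list and a set of key partners, and the 3 genes most like H2-K1 and Cd74. A regulator that this rule also named is not reported here. Same-numbered libraries did not deviate together (correlations of deviations -0.15 to 0.10). Reads were amplified and carry no molecular identifiers. Errors, where given for low counts, are the SD between libraries or the SE of the fit.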

Additional observations from a re-analysis of the deposited data

Results flagged for a closer look

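Libraries far from the other 3 of their group were found in 8 of 136 group tests, where chance gives 6.8 (about 1 in 20). Among the 10 genes, H2-D1 had 4163 normalized counts in 4T1-SCA1- replicate 2 against 3748 to 3789 in the other 3 libraries, and Psmb8 had 389.2 in 4T1-SCA1- replicate 4 against 421 to 424. In 4T1-SCA1+ replicate 3, the library with the highest GC balance, Fcgrt stood at 78.8 against 49.0 to 52.3, Canx at 7674 against 9082 to 9366, and Cd68 at 208.5 against 243 to 249. In 4T1-SCA1- replicate 1, Jak2 stood at 1568 against 1433 to 1454 and Ctsd at 4289 against 4636 to 4695. Krt8 had 11677 in 4T1-SCA1- replicate 2 against 10841 to 10951.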

How the results depend on the processing

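For the 10 genes, 181 results under alternatives kept direction and side of the threshold, 11 lost the call, 5 gained one and 5 turned. The count of members called lower (1, Tapbp) was 0 with upper-quartile factors, with library totals alone, with at least 10 counts in every library, at adjusted p under 0.01 and at 1.5-fold or more, and 3 with GC-corrected offsets (Tapbp, Tap2 and Psmb10). At 1.5-fold or more, 1 member and 1367 genes were called higher and 478 genes were called lower. Leaving out each library gave 0 to 1 members lower, 2 to 3 members higher, 3397 to 3642 genes higher and 3286 to 3548 lower.

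Signs turned only for genes not called. The Psme1 log2 fold change was 0.0028 with upper-quartile factors and 0.0163 with library totals alone. Others were H2-K1 (-0.054) and H2-D1 (-0.044) with GC-corrected offsets, and under omission of a library H2-K1 (-0.0029 to 0.0435), B2m (-0.0063 to 0.0729) and Tap2 (-0.122 to 0.0057). H2-D1 passed the threshold with library totals alone (0.12). The cause was not tested. The 6 ratios could hardly pass 0.05 after adjustment in this design, so their p-values say nothing of stability. Their direction held on omission of each library, except that heavy chains to B2m turned to -0.06 without 4T1-SCA1+ replicate 3. With the replicate block, 3605 genes were higher and 3452 lower, the members' counts stayed at 2 and 1, and no member's call changed; the labels give no pairing beyond the shared numbers. Depth limits Psmb9, with 20 to 50 counts per library.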

Other observations

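Markers of other cell types that the fractions could hold were read as well. Over all genes tested, 31.3% were called higher in 4T1-SCA1+ cells and 30.2% lower, and the groups did not overlap for 54.7%. Of 9 fibroblast markers, 3 were tested, of which 2 were higher and 1 was not called. Pdgfra, a receptor of mesenchymal cells, was higher in 4T1-SCA1+ cells at 560 ± 26.1 against 364 ± 25.6 normalized counts (log2 fold change 0.63 ± 0.07, edgeR adjusted p = 2.28e-07), and the collagen gene Col1a1 was higher at 47.6 ± 10.6 against 28.6 ± 3.93 (0.75 ± 0.19, adjusted p = 0.00252). Postn was not called (0.05 ± 0.24, adjusted p = 0.868). Dcn (49 counts summed in 4T1-SCA1+ against 4 in 4T1-SCA1- cells) and Pdgfrb (27 against 1) did not pass the filter, and the fractions did not overlap for either. Col1a2 (19 against 18) and Fap (4 against 11) did not pass it either, and their groups overlapped. Of 7 endothelial markers, Tie1 alone was tested and was lower (-0.60 ± 0.19, adjusted p = 0.0121), a call lost without 4T1-SCA1- replicate 4 (-0.49). Pecam1 (21 counts summed in 4T1-SCA1+ against 4 in 4T1-SCA1- cells) did not pass the filter either, and its groups were separate. Esam (24 against 32) and Cdh5 (3 against 7), also not tested, went the other way with overlapping groups. Tek and Emcn had at most 1 count in any library. Of 8 epithelial markers, 7 were tested, of which 2 were higher, 3 were lower and 2 were not called. Those not called were Epcam (-0.03 ± 0.04, adjusted p = 0.552) and Krt19 (0.01 ± 0.05, adjusted p = 0.931). Krt5 had at most 2 counts in any library. Krt18 (0.38 ± 0.04, adjusted p = 8.61e-07) and Krt8 (0.31 ± 0.04, adjusted p = 6.4e-06) were higher, and Cdh1, the adhesion protein E-cadherin (-0.69 ± 0.04, adjusted p = 6.19e-10), Krt14 (-0.23 ± 0.06, adjusted p = 0.00346) and Krt7 (-0.20 ± 0.04, adjusted p = 0.000785) were lower.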
